A study of Mus musculus with 6 samples.

Results

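The genes described here encode the contractile machinery of smooth muscle and of the peritubular myoid cells that wrap the cords of the testis. They were chosen by name, as the 10 genes Acta2, Tagln, Cnn1, Actg2, Mylk, Cald1, Myh11, Des, Lmod1 and Myocd, of 19937 genes measured. Each was read by 1 probe set annotated to that gene alone, so no choice between probe sets was needed for the 10. RNA came from mouse gonads of E13.5 embryos, cut free of the mesonephros and frozen. In the Sox9 mutant, of genotype Sox9flox/flox; Sf1:creTr/+, a Cre transgene under Sf1 (Nr5a1) regulatory sequence, which is active in somatic cells of the gonad, acts on floxed Sox9. The other group was wild type, and both were on a mixed C57BL6/J and 129 background. Mutant arrays 3, 4 and 6 each took a pool of 12 gonads, and wild-type arrays 1, 2 and 5 each a pool of 6, so pool size went with genotype. Neither the sex of the embryos nor the litters of the pools are named, and no group carried Cre alone or the floxed alleles alone. Separate litters are not recorded for the pools, so the p-values speak for the spread among these pools, part of which may be technical.

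In the contractile apparatus of smooth muscle, myosin filaments pull on actin filaments after myosin light chain kinase has phosphorylated the regulatory light chain. Calponin, caldesmon and transgelin bind the actin filament, and desmin filaments link the apparatus through the cell. Many of these genes are switched on by serum response factor (SRF) with its coactivator myocardin at a DNA element called the CArG box. In the fetal testis, peritubular myoid cells form around the cords under Hedgehog ligand from Sertoli cells, and smooth muscle and pericytes surround the vessels of testis and ovary alike.

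Acta2, smooth muscle alpha actin and the most widely used marker of peritubular myoid cells, is the member whose promoter is shown, because it changed the most of the 10 and is a classical CArG-driven gene. In RefSeq (GRCm38.p6) the 250 bases before its annotated start lie at chr19:34255374-34255623 on the minus strand. Capitals mark 2 matches to the CArG box, searched as CC, then 6 letters of which at most 1 is not A or T, then GG.
Acta2: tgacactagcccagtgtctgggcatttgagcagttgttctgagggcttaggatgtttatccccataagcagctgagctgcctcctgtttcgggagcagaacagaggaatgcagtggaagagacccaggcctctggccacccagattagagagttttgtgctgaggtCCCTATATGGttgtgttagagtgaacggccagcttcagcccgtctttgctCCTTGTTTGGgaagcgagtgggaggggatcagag
The matches begin 84 and 34 bases before the annotated start. The pattern is its own reverse complement, so a scan of the printed strand covered both strands. Neither match was exact, and no other motif was searched. Of 32851 promoter windows of mouse genes (250 bases before to 50 after the start), 9.98% held at least 1 such match and 0.822% held at least 2. A match describes letters and not binding.

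Acta2 and Tagln were lower in the Sox9 mutant, Myh11 was higher, and the other 7 members did not pass the test. Values throughout are the deposited log2 values, and differences are mutant minus wild type with moderated standard errors (SE). The groups were compared with limma, and a gene counts as called at an adjusted p under 0.05 over all 28187 probe sets. Of 10 members 2 were called lower and 1 higher, where 4.3% of all genes were called lower and 2.64% higher. The median difference of the members was -0.22 log2, against 0.004 for all genes. In the mutant 9 of the 10 means were lower, as were the means of 9806 of all 19937 genes. Cnn1, Des and Lmod1 are among the 9, and their sign turned in some alternative fits. Sox9 itself measured 7.52, 7.78 and 7.60 log2 on mutant arrays 3, 4 and 6, and 8.82, 8.81 and 9.20 on wild-type arrays 1, 2 and 5, so all mutant arrays lay below all wild-type arrays. Which exons were floxed is not stated, so it is not known whether that probe set reads the deleted part. Array 4 stood apart from the other mutants in Sertoli cell genes and array 5 from the other wild types in liver genes. Background was marked at 6.67 log2, below which 95% of 1208 probe sets for odorant and pheromone receptors had their mean.

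**Figure D1:**
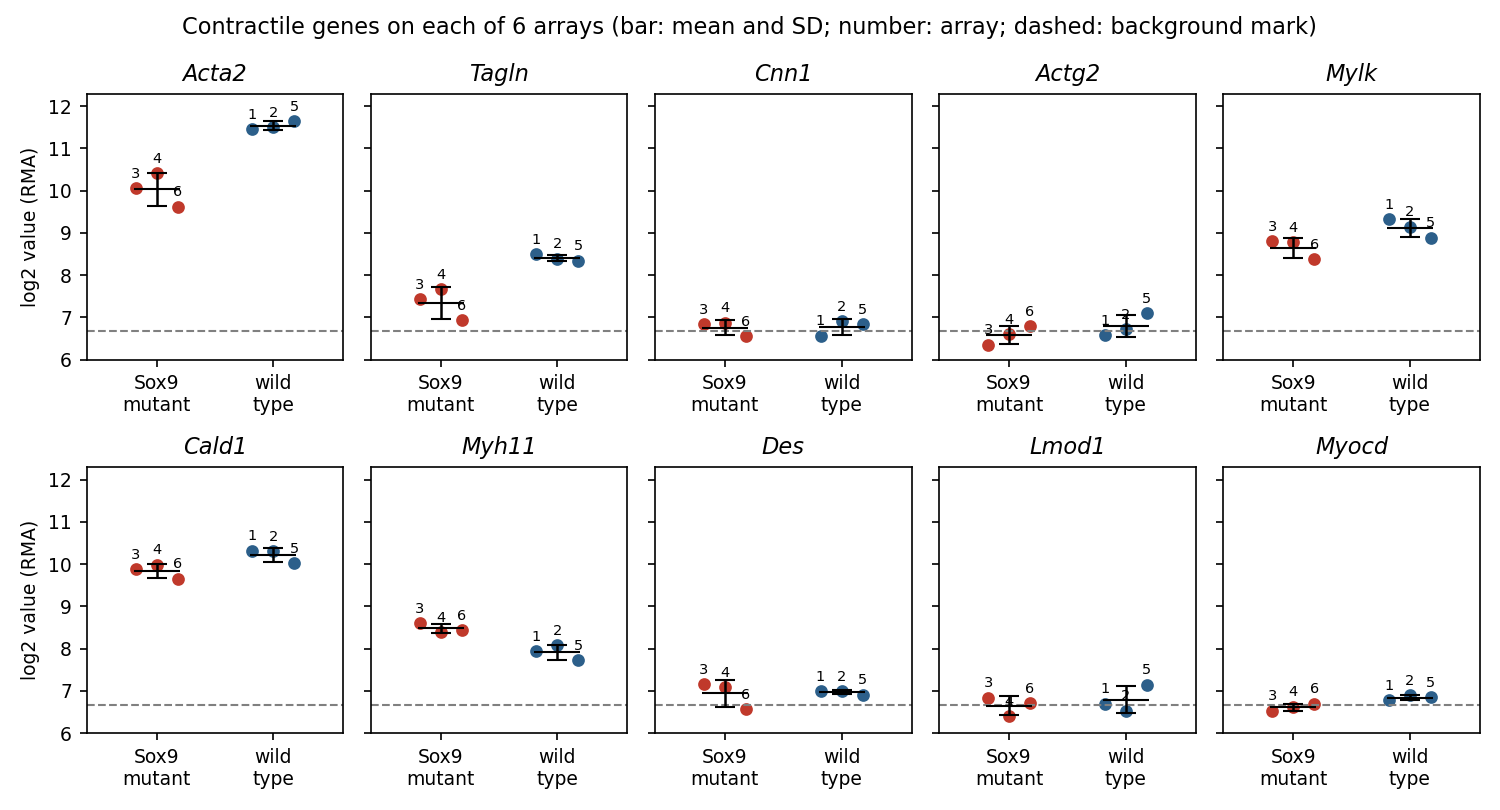
Log2 value of each of the 10 members on every array, Sox9 mutant (red) left of wild type (blue), with array numbers, the mean and SD of 3 arrays, and the background mark of 6.67 log2 as a dashed line. Acta2, Tagln, Mylk, Cald1, Myocd and Myh11 have no overlap between groups, while Cnn1, Actg2, Des, Lmod1 and Myocd lie near the mark.

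Among the genes of the actin filament, Acta2 measured 10.06, 10.41 and 9.62 log2 on mutant arrays 3, 4 and 6, against 11.45, 11.51 and 11.65 on wild-type arrays 1, 2 and 5. All mutant arrays were below all wild-type arrays, with mutant 4 nearest to wild type and mutant 6 farthest. The means were 10.03 ± 0.39 in the mutant and 11.54 ± 0.10 in wild type (SD, n = 3 each). The difference was -1.51 ± 0.19 log2 (SE; limma adjusted p = 0.00218), so that Acta2 was 2.84-fold lower. Both groups stayed well above the mark, and in a pool of whole gonads fewer cells of a type and less RNA per cell cannot be told apart.

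Tagln, which encodes transgelin, an actin-bundling protein of early smooth muscle, measured 7.43, 7.66 and 6.93 log2 on mutants 3, 4 and 6, against 8.49, 8.39 and 8.35 on wild types 1, 2 and 5. The mutant arrays took the same order as for Acta2, with array 4 highest and array 6 lowest. Means were 7.34 ± 0.38 in the mutant and 8.41 ± 0.08 in wild type (SD, n = 3 each), a difference of -1.07 ± 0.18 log2 (SE; limma adjusted p = 0.00919), or 2.10-fold lower. Without wild type 1 the difference was -1.03 log2 and the call was lost (limma adjusted p = 0.0540). Over the 6 arrays Acta2 and Tagln had a Pearson r of 0.984, given as a description of values that share the same arrays and groups.

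Cald1, the caldesmon that restrains actin and myosin interaction, measured 9.88, 9.99 and 9.65 log2 on mutants 3, 4 and 6, and 10.32, 10.31 and 10.02 on wild types 1, 2 and 5. The groups did not overlap, although mutant 4 and wild type 5 lay close together. The difference of -0.38 ± 0.14 log2 (SE; limma adjusted p = 0.172) did not pass, and its 95% interval ran from -0.69 to -0.06.

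Cnn1, the calponin of mature smooth muscle, differed by -0.02 log2, with a 95% interval of -0.33 to 0.30 (limma adjusted p = 0.967). It measured 6.84, 6.88 and 6.56 log2 on mutants 3, 4 and 6, and 6.57, 6.92 and 6.84 on wild types 1, 2 and 5, so the groups overlapped at the background mark. Actg2, the gamma actin of visceral smooth muscle, measured 6.36, 6.61 and 6.80 in the mutant and 6.58, 6.72 and 7.10 in wild type (-0.22 log2, limma adjusted p = 0.552). Lmod1, a leiomodin that nucleates actin filaments, measured 6.84, 6.41 and 6.72 in the mutant and 6.70, 6.54 and 7.14 in wild type (-0.14 log2, limma adjusted p = 0.748). Actg2 and Lmod1 each had their highest value of the 6 arrays on wild type 5. Cnn1, Actg2, Des, Lmod1 and Myocd had both group means less than 0.35 log2 above the mark or below it, a distance chosen after the values were seen, and a fold so close to background understates a change.

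Of the myosin side, Myh11, the heavy chain of smooth muscle myosin, ran opposite to Acta2. It measured 8.61, 8.39 and 8.44 log2 on mutants 3, 4 and 6, against 7.94, 8.08 and 7.72 on wild types 1, 2 and 5. All mutant arrays were above all wild-type arrays. Means were 8.48 ± 0.11 in the mutant and 7.92 ± 0.18 in wild type (SD, n = 3 each). Myh11 was higher by 0.56 ± 0.13 log2 (SE; limma adjusted p = 0.0374), or 1.48-fold. That call was lost when any 1 array was left out, mutant 3, 4 or 6 or wild type 1, 2 or 5, with differences of 0.47 to 0.65 log2 and limma adjusted p of 0.0537 to 0.135.

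Mylk, the kinase that phosphorylates the regulatory light chain of myosin, measured 8.80, 8.78 and 8.38 log2 on mutants 3, 4 and 6, and 9.32, 9.14 and 8.89 on wild types 1, 2 and 5. Mutant values were all lower than wild-type values, by a mean of -0.47 ± 0.16 log2 (SE), which did not pass (limma adjusted p = 0.141). With arrays 5 and 6 taken as a batch, a grouping the labels do not name, the same difference passed (limma adjusted p = 0.0264).

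Des, the intermediate filament protein desmin, measured 7.16, 7.09 and 6.56 log2 on mutants 3, 4 and 6, and 6.996, 6.995 and 6.908 on wild types 1, 2 and 5. Mutant 6 was below all other arrays and mutants 3 and 4 above them, and the difference of -0.03 log2 had a 95% interval of -0.39 to 0.34 (limma adjusted p = 0.955). Myocd, the coactivator of SRF, measured 6.53, 6.62 and 6.70 in the mutant and 6.77, 6.90 and 6.85 in wild type. Its groups did not overlap, yet all 6 values lay near the mark and the difference of -0.22 ± 0.11 log2 (SE) did not pass (limma adjusted p = 0.320).

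In all, 5 members had every mutant array below every wild-type array and 1 had every mutant array above, where 16.6% and 12.1% of all genes did. Mutant 6 was the lowest mutant array for 6 members, Acta2, Tagln, Cnn1, Mylk, Cald1 and Des.

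**Figure D2:**
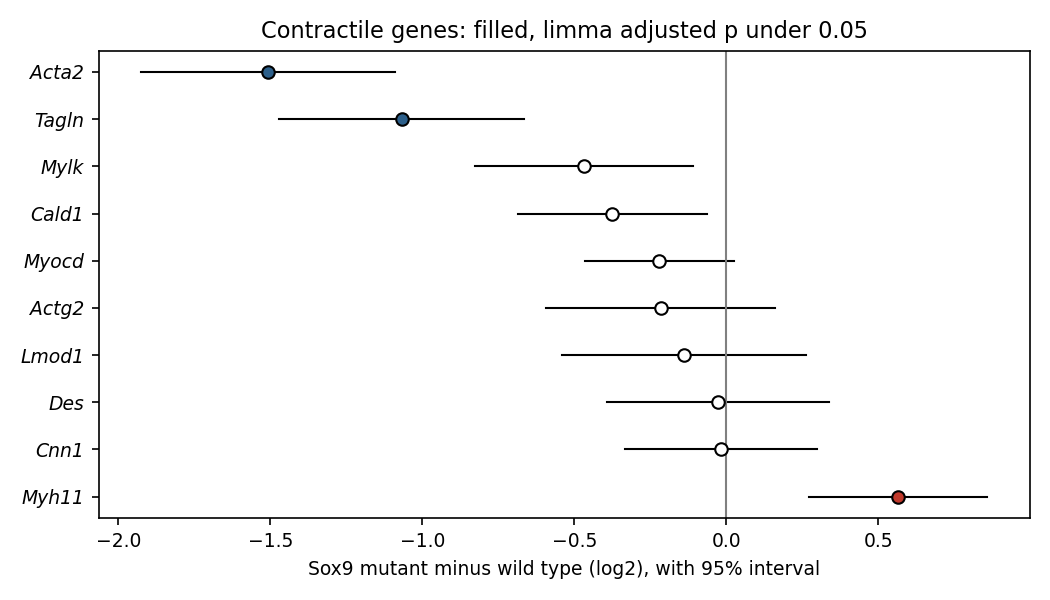
Sox9 mutant minus wild type in log2 for the 10 members, with 95% intervals from limma; filled points passed an adjusted p of 0.05 (blue lower, red higher in the mutant) and open points did not. Acta2 at -1.51 and Tagln at -1.07 stand to the left, and Myh11 at 0.56 stands alone to the right.

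For the question of cords against vessels, members were assigned from general knowledge, since the labels give no such split. Acta2, Tagln, Cnn1 and Actg2 were taken as cord-associated, Myh11, Des, Lmod1 and Myocd as vessel-associated, and Mylk and Cald1 as common to both. Every one of these genes can be made by both kinds of cell, and Myh11 and Des mark peritubular cells of the later testis as well. Relative to the wild-type mean of each gene, the 4 cord-associated members averaged -0.71, -0.49 and -0.90 log2 on mutants 3, 4 and 6, against -0.11, 0.004 and 0.10 on wild types 1, 2 and 5. The 4 vessel-associated members averaged 0.16, 0.0001 and -0.02 on the mutants and -0.03, -0.001 and 0.03 on the wild types. The cord-associated averages of the groups did not overlap, and the vessel-associated averages did. Of all single genes, 16.6% had every mutant array below every wild-type array. Among 10 pericyte genes, given below, 4 were called lower, 1 higher and 5 did not pass. Pdgfrb, 1 of the 4, is also made by interstitial mesenchyme, so these calls do not measure the vessel wall alone. Neither they nor the vessel-associated average stand for all genes of the vessel wall.

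The cord-associated average was -0.70 ± 0.21 log2 in the mutant and 0.00 ± 0.10 in wild type, and the vessel-associated average 0.04 ± 0.10 and 0.00 ± 0.03 (SD, n = 3 each). Cord minus vessel was -0.75 log2 in the mutant relative to wild type, given without a test because the members were chosen with earlier results known. The cord value rests on Acta2 and Tagln, as Cnn1 and Actg2 were near background. The vessel value averages the higher Myh11 with negative differences of Des, Lmod1 and Myocd, which were near background too. A change of those genes would be understated, so the small vessel value does not show that vessel-associated expression was unchanged. With Myh11 and Des counted as cord-associated, cord minus vessel was -0.20 log2. So the size of the contrast depended on where those genes were placed.

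**Figure D3:**
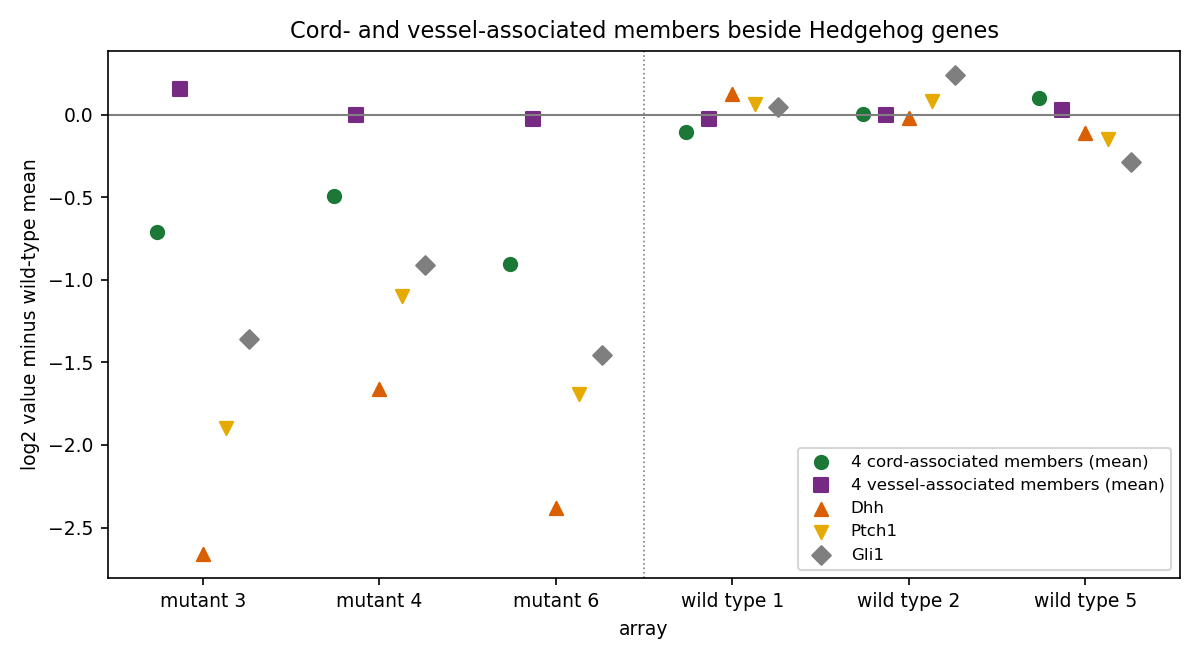
Mean of the 4 cord-associated and of the 4 vessel-associated members, with Dhh, Ptch1 and Gli1, on each array as log2 value minus the wild-type mean, mutant arrays left of wild-type arrays. The cord-associated mean lies at -0.90 to -0.49 on the mutants while the vessel-associated mean stays between -0.02 and 0.16. Cnn1, Actg2, Des, Lmod1 and Myocd, which enter these means, lay near background.

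Genes linked to signals from cords to peritubular cells, receptors and targets as well as ligands, were set beside the members. Dhh, the Sertoli cell Hedgehog ligand, measured 6.18, 7.18 and 6.46 log2 on mutants 3, 4 and 6, and 8.97, 8.82 and 8.73 on wild types 1, 2 and 5. Its receptor and target Ptch1 measured 8.79, 9.58 and 8.99 in the mutant and 10.75, 10.76 and 10.54 in wild type. Gli1, a Hedgehog target and effector, measured 7.51, 7.96 and 7.41 in the mutant and 8.91, 9.11 and 8.58 in wild type. All 3 genes, like Acta2 and Tagln, were highest among mutants on array 4. Mutant 3 was lowest for Dhh and Ptch1, and mutant 6 was lowest for Gli1, as for Acta2 and Tagln. In this list of 9 measured genes 6 fell and 1 rose: Hhip (-2.74), Dhh (-2.24), Ptch1 (-1.56), Gli1 (-1.24), Pdgfra (-0.81) and Pdgfb, named beyond the largest 6 changes (-0.53 log2), fell, and the nuclear receptor Nr0b1 rose by 1.04 log2. The mutant means of Hhip (6.23) and Dhh (6.61 log2) were under the background mark, so their differences are lower limits in size and their rank among the falls is not settled. Smo and Pdgfa did not pass (-0.10 and -0.21 log2).

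Beyond the members, 27 of 28 listed genes linked to the contractile apparatus were measured, and 11 fell, 1 rose and 15 did not pass. They are called other contractile genes here, although some, such as Casq2, encode no part of that apparatus. Their median difference was -0.13 log2, against 0.004 for all genes, of which 4.3% were called lower and 2.64% higher. The same shares of all genes stand beside the counts of the other lists. All lists were chosen with earlier results of these data known, so their counts and medians are a description and not a test. Casq2, the calsequestrin that stores calcium in muscle, measured 6.24, 6.88 and 5.95 log2 on mutants 3, 4 and 6, against 8.46, 8.41 and 8.59 on wild types 1, 2 and 5, and fell by 2.13 ± 0.21 log2 (SE; limma adjusted p = 0.000857). Its mutant values again ran in the order 4, 3, 6, with mutants 3 and 6 under the background mark.

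Pdlim3, an adaptor of actin filaments and alpha-actinin, measured 7.47, 7.88 and 7.52 log2 on mutants 3, 4 and 6, against 9.50, 9.46 and 9.22 on wild types 1, 2 and 5 (-1.77 ± 0.14 log2, SE; limma adjusted p = 0.000344). Ppp1r14a, the inhibitor of myosin light chain phosphatase also called CPI-17, fell by 1.31, Cnn2, a calponin of many cell types, fell by 1.11 and Smtn, which encodes smoothelin, fell by 0.85 log2. Further calls, named beyond the largest 6 changes, were Csrp1, Synm, Hspb1, Tpm2, Tpm1 and Pdlim7, with differences of -0.72 to -0.50 log2. These 6 calls were less stable: of 16 alternative fits Synm passed in 12, Csrp1 in 11, Tpm2 and Hspb1 in 9 each and Tpm1 and Pdlim7 in 8 each, and each lost its call without wild type 1 and without wild type 2. The list's 12 calls became 6 in both of those fits and 7 without wild type 5.

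Myl9, the regulatory light chain that Mylk phosphorylates, was the single riser of that list. It measured 11.07, 10.83 and 10.91 log2 on mutants 3, 4 and 6, against 9.94, 9.88 and 9.93 on wild types 1, 2 and 5. All mutant values were well above all wild-type values, and Myl9 was higher by 1.02 ± 0.11 log2 (SE; limma adjusted p = 0.00136). Among the 3 measured other actins none was called by limma (0 with an unadjusted p under 0.05), and Actb measured 13.45 ± 0.06 log2 in the mutant and 13.52 ± 0.04 in wild type (SD, n = 3 each).

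**Figure D4:**
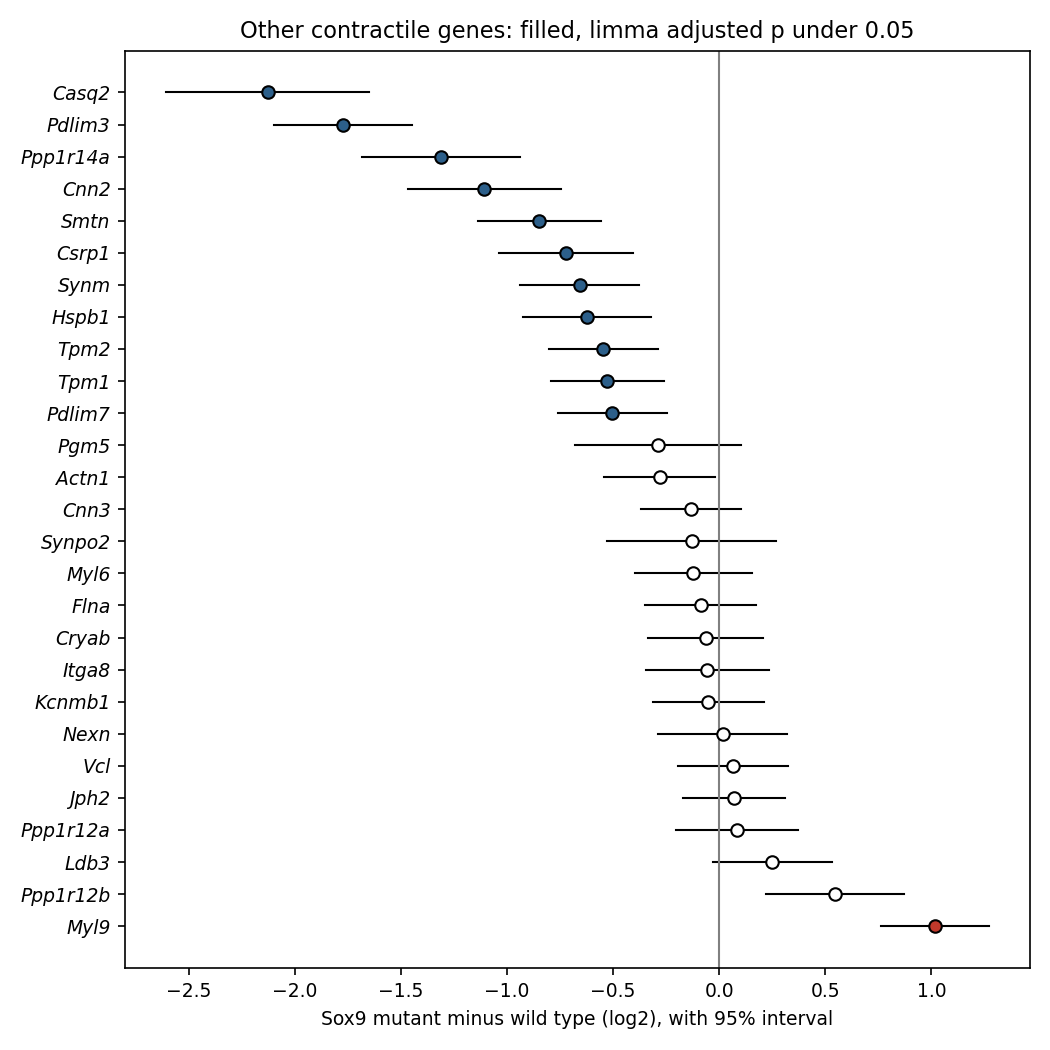
Sox9 mutant minus wild type in log2 for 27 further contractile genes, with 95% intervals from limma; filled points passed an adjusted p of 0.05 (blue lower, red higher in the mutant). The 11 blue points run from Casq2 at -2.13 to Pdlim7 at -0.50, and Myl9 at 1.02 is the single red point.

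Stretches of the promoters of Cnn2, which fell, and Myl9, which rose, are shown because each holds an exact match to the CArG box (capitals) although the genes changed in opposite directions. The stretches are from RefSeq (GRCm38.p6), at chr10:79988519-79988578 and chr2:156775278-156775337, both on the plus strand.
Cnn2: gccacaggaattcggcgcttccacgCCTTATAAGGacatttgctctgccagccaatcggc
Myl9: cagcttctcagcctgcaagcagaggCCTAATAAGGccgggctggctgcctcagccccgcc
Among members, 6 matched a promoter entry, while Tagln, Myh11, Actg2 and Myocd had none and were not searched. So of the called members only Acta2 was searched. Of the 6, Acta2 alone held a match with at most 1 central letter outside A and T. Of 25 other contractile genes with an entry, some with several windows, 8 held such a match and 5 an exact one. Of all windows, 9.98% held such a match and 1.63% an exact one, so genes and windows are not counted in the same unit. The genes with an exact match other than Cnn2 and Myl9 were not called. Of the genes with an inexact match only, Pdlim3 and Synm were called lower and Jph2 was not called. Myl9 also held an inexact match outside the stretch shown.

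For SRF and its partners, 14 of 15 listed genes were measured, of which 3 fell and 1 rose. Mef2c, a MADS-box factor, fell by 0.91, Foxo4, a forkhead factor that binds myocardin, fell by 0.63 and Csrp2, a LIM protein of smooth muscle, fell by 0.58 log2, while the zinc finger factor Gata6 rose by 0.59. Srf itself measured 8.15, 8.34 and 8.48 log2 on mutants 3, 4 and 6, and 8.73, 8.60 and 8.83 on wild types 1, 2 and 5. Its groups did not overlap, and the difference of -0.40 ± 0.13 log2 (SE) did not pass (limma adjusted p = 0.119). The myocardin-related factors Mrtfa and Mrtfb differed by -0.12 and 0.17 log2, without passing.

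Markers of other cell types moved as follows, and their part in the results was not tested. Of 10 pericyte genes 4 fell and 1 rose. Pdgfrb, the receptor that recruits mural cells and is also made by interstitial mesenchyme, fell by 1.16, Notch3 fell by 0.97, Mcam fell by 0.88 and Cspg4 fell by 0.58 log2, and the peptidase gene Anpep rose by 1.61. The 5 that did not pass were Rgs5 (-0.40), Abcc9 (-0.14), Kcnj8 (0.03), Rgs4 (0.03) and Higd1b (0.29 log2). The average log2 level of that list was 7.63 to 7.74 on the mutant arrays and 7.86 to 7.93 on the wild-type arrays, with 2 of 10 genes below the mark in both groups. Of 12 endothelial genes none was called by limma (4 had an unadjusted p under 0.05), with an average level of 8.21 to 8.31 in the mutant and 8.32 to 8.52 in wild type. The 4 measured interstitial progenitor genes, Tcf21, Wnt5a, Pdgfra and Nr2f2, fell by 1.22, 1.21, 0.81 and 0.66 log2.

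Sertoli genes averaged 6.58 to 8.20 log2 in the mutant and 10.01 to 10.11 in wild type, and all 7 fell. The 7 include Sox9, the gene targeted in the mutant, and Dhh, which was also counted among the cord signals. Mutant 4 had the highest mutant value of all 7, with Amh at 5.91, 8.91 and 5.89 log2 on mutants 3, 4 and 6 and at 11.41, 11.09 and 11.20 on wild types 1, 2 and 5. It is also the mutant array on which Acta2 and Tagln lay nearest to wild type, and the part of this in the results was not tested. Without mutant 4, Acta2 differed by -1.70 log2 (limma adjusted p = 0.00103) and Tagln by -1.23 (0.00638), both still called, and Myh11 by 0.61 (0.0780), no longer called. All 7 pregranulosa genes rose, and averaged 9.10 to 9.31 log2 in the mutant and 7.28 to 7.40 in wild type. Skeletal muscle genes averaged 6.39 to 6.54 log2 in the mutant and 6.40 to 6.60 in wild type, with 8 of 12 below the mark in both groups, and none was called by limma (0 had an unadjusted p under 0.05). Of the 8 cardiac genes none was called by limma either (0 with an unadjusted p under 0.05), and they averaged 7.07 to 7.17 in the mutant and 7.11 to 7.46 in wild type. Wild type 5 stood apart in liver genes, at 9.61 log2 on average against 6.42 to 6.67 on the mutant arrays and 6.23 on the lowest wild-type array, and Actc1, the cardiac actin, was at 9.08 on it and at 7.74 to 8.19 on the 5 other arrays. Without wild type 5, Acta2 differed by -1.45 log2 (limma adjusted p = 0.0109) and Tagln by -1.10 (0.0293), and both calls held, while Myh11 differed by 0.47 (0.110) and lost its call.

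Genes that followed Acta2 and Myh11 most closely across the 6 arrays were sought among 998 genes. Their mean over all 6 arrays was above the mark and their range was at least 1 log2. The members, and predicted genes without an official symbol, had been left out. Nearest to Acta2 were Krt222 (Pearson r = 0.998), Casq2, Aldh1a1, Tubb6 and Prss35 (0.995 to 0.996), with differences of -0.84, -2.13, -1.17, -0.81 and -1.95 log2. Krt222 and Casq2 passed that filter through their wild-type values, since their means were 6.66 and 6.36 log2 in the mutant, under the mark, and 7.50 and 8.48 in wild type, so their r rests partly on values at background. Nearest to Myh11 were Fbn2 (0.995), Peak1, Lrrc4, Fat4 and Itga6 (0.986 to 0.988), with differences of 0.81, 0.76, 0.72, 0.94 and 0.87 log2. With 2 groups among 6 arrays, any gene that separates the groups evenly has a high r, and Acta2 against Myh11 gave -0.905.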

How the data were processed

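The deposited values, 1 column per array, are log2 values that the authors made with RMA, per the submitters' processing notes. RMA in its usual form corrects background, equalizes the distributions of the arrays and summarizes probes. Its version and settings: not given in the sources used here. They ran from 2.45 to 14.49 log2, with array medians within 0.06. Equal distributions cannot show a general change of RNA content.

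From 34760 rows 6573 (18.9%) were dropped as the control block, their identifiers being below the lowest annotated one. Of 28187 tested probe sets, 21640 had 1 gene, 1321 several and 5226 none in the annotation used here. A gene was represented by its brightest probe set over all arrays (19937 genes). The comparison used lmFit and eBayes of limma 3.58.1 under R 4.3.3, 2-sided with Benjamini-Hochberg adjustment, after the procedure had been tested on simulated data. With 3 arrays a group, array number limits precision.

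Members and lists were chosen with earlier results of these data known. Names were limited to the members, Sox9, from each list up to 6 called genes with the largest difference (the 2 brightest where none was called), and the 5 genes most like Acta2 or Myh11. Other names are marked, Srf, Mrtfa, Mrtfb, Smo, Pdgfa, Actc1, Jph2 and the 5 uncalled pericyte genes being chosen after their values were seen. Erythroid (1 of 5 fell), macrophage (limma called 0 of 6, 1 with an unadjusted p under 0.05) and mesonephric markers (1 of 7 fell, 2 rose) were also checked. Alternatives covered normalization, dim filters, eBayes options, array weights, a hypothetical batch, arrays left out, gene summary, threshold and the split of members. Figures used matplotlib 3.10.9.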

Additional observations from a re-analysis of the deposited data

How the results depend on the processing

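No paired analysis was possible because the groups share no array number. Acta2 passed in all 16 alternative fits (-1.70 to -1.25 log2) and Tagln in 15 of them. Members called lower numbered 1 to 2 with single arrays left out. Members called higher numbered 0 with any single array left out, with arrays 1 to 4 alone, without wild type 5 and mutant 4 together, and at an adjusted p of 0.01, with 1 in the other alternatives. In those fits Myh11 was higher by 0.47 to 0.65 log2. Other contractile genes called numbered 12 in the fit reported, 6 with arrays 1 to 4 alone, 7 without wild type 5 and mutant 4 together, 6 at an adjusted p of 0.01 and 6 to 9 with single arrays left out (6 without wild type 1 or 2, 7 without wild type 5). Casq2, Pdlim3, Ppp1r14a, Cnn2, Smtn and Myl9 passed in all 16 fits. Cord minus vessel was -0.20 log2 with Myh11 and Des counted as cord-associated, and -0.87 to -0.68 with single arrays left out. Among genes near background, signs turned. Cnn1 gave 0.0432 log2 with array weights, 0.11 with arrays 1 to 4 alone and -0.122 to 0.0813 with single arrays left out. Des gave 0.0351, 0.13 and -0.14 to 0.16 in the same settings. Lmod1 gave 0.0049 with arrays 1 to 4 alone, 0.16 without wild type 5 and mutant 4 together and -0.268 to 0.0365 with single arrays left out. The cause of these turns was not tested. Under the filter on the upper part of probe sets by mean, Cnn1, Actg2, Des, Lmod1 and Myocd were not measured.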

Other observations

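The genes next to the called members on the chromosome, found in the GRCm38.p6 gene table after the members' values were seen, did not pass the test. Beside Acta2, Stambpl1 measured 7.62 ± 0.03 log2 in the mutant and 7.50 ± 0.04 in wild type, and Fas 5.71 ± 0.24 and 5.96 ± 0.16, below the background mark (SD, n = 3 each; limma adjusted p = 0.629 and 0.418). Beside Tagln, Sidt2 measured 9.88 ± 0.05 log2 in the mutant and 10.20 ± 0.07 in wild type, and Pcsk7 7.32 ± 0.06 and 7.33 ± 0.17 (limma adjusted p = 0.126 and 0.987). Beside Myh11, Nde1 measured 8.70 ± 0.16 log2 in the mutant and 8.95 ± 0.11 in wild type, and Cep20 9.35 ± 0.14 and 9.01 ± 0.18 (limma adjusted p = 0.318 and 0.206).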
